A study of Drosophila melanogaster with 30 samples.

Results

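The male and female central nervous system (CNS) of Drosophila melanogaster were compared directly on 4 of the 30 arrays of the series. The animals were pupae of the wild-type strain Canton S at 48 h after puparium formation, when metamorphosis is under way. Each extract pooled about 20 dissected brains and ventral nerve cords, and the series' design text calls the biological samples independent. Males and females carried no mutation or transgene that the labels name. On every array the RNA of 1 sex was labelled with Cy5 and that of the other sex with Cy3: female RNA carried Cy5 on replicates 1 and 2, and male RNA carried Cy5 on replicates 3 and 4. The other 26 arrays set males against males. On 14 of them mutants lacking fru P1 transcripts were compared with wild type, as fru-w12/fru-ChaM5 in a w background against w; Berlin or as fru-440/fru-P14 against Canton S. Among these 14, whole bodies were used on 8 and the CNS on 6, always from 48 h pupae. The other 12 concerned RNAi against EcR-A, an isoform of the ecdysone receptor. There, males in which fru P1-GAL4 drove the RNAi were compared with fru P1-GAL4 males without the RNAi construct. These males were 0 h pupae (4 arrays), 48 h pupae (4 arrays) or adults at most 1 day old (4 arrays). The 4 arrays that compare the sexes were chosen by their titles. A probe entered the comparison with a value on at least 3 of them and at least 1 in each dye orientation. That left 7414 of 15744 probes, with 32 control spots set aside.

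In the fly, sex is set cell by cell. Sex lethal, made in females, directs the splicing of transformer, and transformer in turn sets the splicing of doublesex and of the fru P1 transcripts, so that males alone make the transcription factor FRUM in the nervous system. The pupal CNS is rebuilt under the steroid hormone ecdysone, and neurons that differ in number or wiring between the sexes take their adult form in this period. Males also raise the output of their single X chromosome through a complex that holds the noncoding roX RNAs. None of these genes could be looked up here: the probes carry plate positions as IDs, the files do not pair them with genes, and so every probe is described by its ID and its values alone. The dissected tissue was likewise not checked against neuronal, glial or fat body markers.

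A value is the authors' deposited log2 ratio between the 2 channels of an array, and 1 unit is a 2-fold difference. The labels do not say which sex a positive ratio favours, so signs are those of the deposited values, and all counts of positive and negative ratios would change places if the direction were turned. Replicates 1 to 4 gave a value for 6976, 7510, 7938 and 8596 probes. Their medians lay at 0.04, 0.04, -0.04 and -0.04, and the standard deviation (SD) over probes was 0.528, 0.465, 0.481 and 0.536. The tails of the arrays differed by orientation. Values below -1 numbered 282 and 211 with female on Cy5 and 128 and 176 with male on Cy5, whereas values above 1 numbered 62 and 19 with female on Cy5 and 178 and 247 with male on Cy5. The labels mark replicate 1 as a rewashed slide, replicate 2 as a first scan and replicates 3 and 4 as second scans. Both arrays with male on Cy5 are thus marked as second scans and neither array with female on Cy5 is. A gap between orientations therefore cannot be told apart from a difference between scans. Each array is a slide of its own, so slide cannot be fitted as a block. Precision is limited by how many arrays there are, and how far spots stood above background is unknown.

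Probes beyond 0.25 on every array mostly changed sign with the dye orientation, whereas those beyond 1 mostly kept 1 sign. Across the 5721 probes with 4 values, arrays of the same orientation had a Pearson's r of 0.508 (replicates 1 and 2) and 0.49 (replicates 3 and 4), whereas arrays of opposite orientation had r between -0.288 and -0.0998. These correlations run across probes of shared arrays and are given as a description. Among the 77 probes with a mean absolute ratio over 1, the 4 pairs of arrays of opposite orientation all had a positive r, from 0.496 to 0.648. The same turn appeared in the signs. Of the 7414 tested probes, 1285 were beyond 0.25 on every array with a value, and the signs of smaller ratios were not counted. Among the 1285, 173 had 1 sign throughout and 886 changed sign with the orientation. Of 38 probes beyond 1, 35 had 1 sign and 2 changed sign with the orientation, and all 17 probes beyond 1.5 had 1 sign, which was negative. The deposited ratios were read as already turned 1 way for both orientations. This reading is an assumption: the labels do not state it, and these signs cannot decide it. Read as Cy5 over Cy3, the gap between orientations would be the difference between the sexes, and 794 probes would be called.

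**Figure D1:**
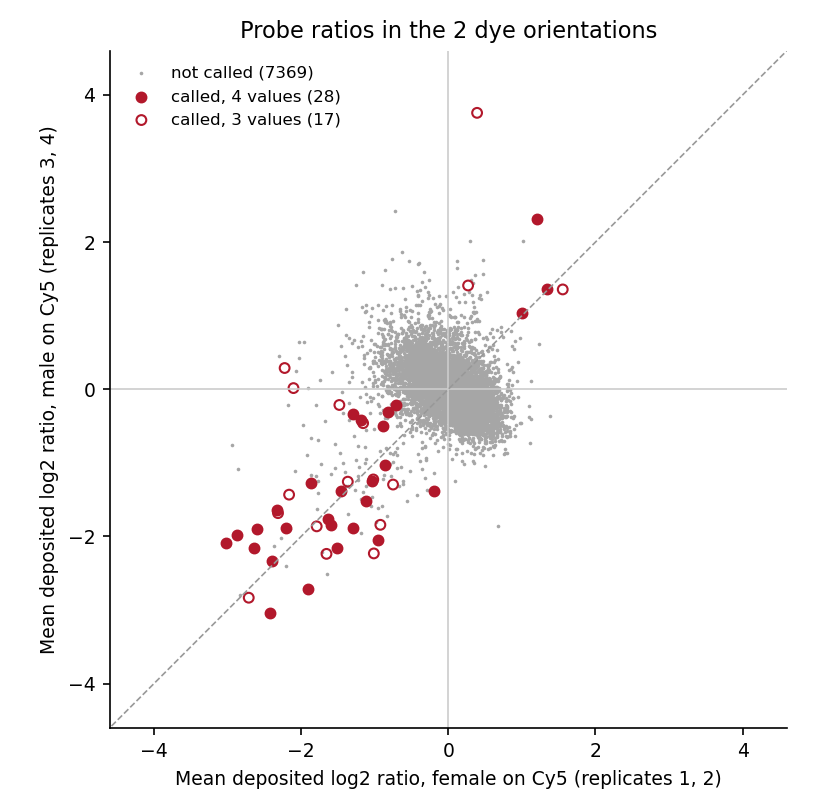
Mean deposited log2 ratio of each tested probe on the 2 arrays with female on Cy5 (horizontal axis) and on the 2 arrays with male on Cy5 (vertical axis); grey points were not called, filled red points were called with 4 values and open red points with 3, and the dashed line marks equal ratios. The grey cloud slopes downwards, whereas called probes lie mostly along the line of equal ratios, 39 of the 45 on the negative side.

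The fit held a coefficient for dye orientation. With the ratios read as turned 1 way, 45 of 7414 probes differed between the sexes (0.607% of those tested, limma adjusted p under 0.05). A negative ratio was found for 39 of them (0.526%) and a positive ratio for 6 (0.0809%). The median absolute ratio of the calls was 1.5, from 0.46 to 2.77, and that of all tested probes was 0.11; the calls were made on these ratios, so the contrast only describes them. Of the negative calls 29 exceeded 2-fold and 9 exceeded 4-fold. Of the positive calls 5 exceeded 2-fold and 1 exceeded 4-fold. That 1 was DAC003P12, with 3.76 on replicate 3 but 0.65 and 0.13 on replicates 1 and 2. In 43 of the 45 every array with a value had the same sign. A value on all 4 arrays was held by 28 calls (0.489% of 5721 such probes) and on 3 arrays by 17 (1.00% of 1693). Without adjustment 563 probes had a p under 0.05, 250 positive and 313 negative.

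The count of calls depended on single arrays. Without replicate 1 it was 12 (1 positive, 11 negative) and without replicate 2 it was 36 (3 positive, 33 negative). Without replicate 3 it was 17 (10 positive, 7 negative) and without replicate 4 it was 32 (22 positive, 10 negative), so that the excess of negative calls did not hold in fits with 1 array of male on Cy5. In these fits 15, 8, 14 and 14 of the 45 probes lost too many values to be tested, and 5, 21, 8 and 11 of the rest kept their call. An array left alone in its orientation is fitted exactly by the dye coefficient, and its distance from the others then enters no error. With the dye coefficient removed, so that the gap between orientations counts as error, 24 probes were called, 23 of them negative. A sign-flip permutation test on 4 arrays cannot give an exact two-sided p below 0.125, so single probes were tested only in the fit across all probes.

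Among negative calls with 4 values, 4 probes kept their call in all 13 alternatives that tested them and left the ratio's direction as deposited. DAC029L10 had -2.04, -2.81, -3.43 and -2.65 on replicates 1 to 4, the lowest mean ratio of any probe with 4 values. The fit gave -2.73 ± 0.17 (SE, n = 4 arrays), a 6.63-fold difference with an adjusted p of 5.14e-07 by limma. DAC029L12, 2 columns away in the same row and plate if the ID is read as a plate position, had -0.75, -1.82, -2.05 and -1.71 and a fitted ratio of -1.58 ± 0.19 (SE, n = 4; limma adjusted p = 0.000847). DAC014J19 had -1.81, -1.11, -1.16 and -1.59, a 2.67-fold difference with arrays of both orientations interleaved (-1.42 ± 0.14, SE, n = 4; limma adjusted p = 0.000123). DAC007K18 was negative on every array but differed by orientation, at -0.96 and -0.94 with female on Cy5 and -2.14 and -1.94 with male on Cy5. Its fitted ratio was -1.5 ± 0.13 (SE, n = 4; limma adjusted p = 4.35e-05), and the gap between its orientations was called too (limma adjusted p = 0.0258).

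Another 4 negative calls had a wider error in the fit than those above, with SEs between 0.23 and 0.40. DAC006N19 had -2.56, -2.24, -2.28 and -2.39 on the 4 arrays, an SD of 0.144, and was fitted at -2.37 ± 0.38 (SE, n = 4), a 5.17-fold difference (limma adjusted p = 0.0166). The fit shares its estimate of the spread among 18 arrays, and this probe's residual SD over them was 0.94. With the 4 arrays fitted alone its SE was 0.112 (limma adjusted p = 0.000975). DAC026E06 had -2.42, -2.85, -2.15 and -2.17 (5.27-fold; limma adjusted p = 0.0204). DAC016I15 had -2.33, -2.08, -1.87 and -1.91 (4.13-fold; adjusted p = 0.0248 by limma), and DAC031B07 had -1.85, -1.41, -1.88 and -1.66 (3.25-fold; adjusted p = 0.0184 by limma). In these 4 probes the arrays of both orientations lay close together, with SDs between 0.144 and 0.328.

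Another 3 large negative calls had a wider spread on the sex arrays themselves. DAC029A06 had -3.81 on replicate 1 and -2.23, -1.98 and -2.21 on replicates 2 to 4 (limma adjusted p = 0.00825, n = 4). DAC003M14 had -3.24, -2.51, -1.71 and -2.26, lower with female on Cy5 (5.39-fold; adjusted p = 0.00839 by limma, n = 4). DAC009G14 had the opposite order, -1.73 and -2.07 with female on Cy5 and -2.87 and -2.55 with male on Cy5 (4.94-fold; adjusted p = 0.00825 by limma, n = 4). DAC014B10 was the weakest of the negative probes named here, at -1.51, -0.86, -0.47 and -0.36 (1.74-fold; limma adjusted p = 0.0276, n = 4), and its call ended in 5 of 13 alternatives.

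Negative calls that rested on 3 arrays differed in how far those arrays agreed. DAC039N16 had -1.79, -1.89 and -1.83 on replicates 1, 3 and 4, an SD of 0.0535 (limma adjusted p = 0.00568), and DAC039P17 had -2.71, -3.04 and -2.62 on replicates 2, 3 and 4 (6.83-fold; adjusted p = 0.0466 by limma). DAC039E15 had -2.16, -1.57 and -1.30 on replicates 1, 3 and 4 (adjusted p = 0.00839 by limma) and DAC012J10 had -2.16, -1.15 and -2.24 on replicates 1, 2 and 4 (adjusted p = 0.0257 by limma). Both of these kept their call in all 9 alternatives that tested them. For a probe with 3 values, however, the only fit with an array left out that tested it left out the array without its value. No alternative therefore tested such a probe with 1 of its own values removed. The call of DAC039P17 ended in 4 of 9, and that of DAC039N16 in 2 of 9: limma gave it an adjusted p of 0.575 with no dye coefficient and 0.3 with 1 shared by 4 experiments. DAC032I02 spread more widely, at -2.31, -2.50 and -0.87 on replicates 1, 3 and 4, and DAC012L24 stood at -0.68, -1.34 and -2.23 on replicates 1, 2 and 3 (adjusted p = 0.0466 and 0.0416 by limma). Their calls ended in 4 and 3 of 9 alternatives.

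The 6 positive calls were fewer and differed in how far their arrays agreed, with SDs between 0.151 and 1.96. DAC006G05 had 1.23 and 1.17 with female on Cy5 and 2.62 and 2.01 with male on Cy5, fitted at 1.76 ± 0.22 (SE, n = 4), a 3.38-fold difference (limma adjusted p = 0.00231). All 4 values were positive, and the call held in 12 of 13 alternatives. DAC013J21 had the closest values of the 3 positive calls with 4 arrays, 1.55, 1.14, 1.38 and 1.33 (2.55-fold; limma adjusted p = 0.0466, n = 4), although its call ended in 8 of 13 alternatives. DAC007M04 had 0.71, 1.29, 0.72 and 1.35 (2.02-fold; limma adjusted p = 0.0466, n = 4), with a high and a low array in each orientation, and its call also ended in 8 of 13. DAC010M17 had 1.56, 1.45 and 1.26 on replicates 1, 3 and 4 (2.74-fold; limma adjusted p = 0.0382, n = 3). In the last 2 positive calls a single array stood apart. DAC003P12 had 0.65 and 0.13 on replicates 1 and 2 and 3.76 on replicate 3. It was fitted at 2.07, a 4.21-fold difference, and at 1.51 with no dye coefficient. DAC027P06 had 0.38, 0.16 and 1.41 on the same arrays. Both gaps between orientations were called (limma adjusted p = 0.0105 and 0.0393, n = 3). With the gap counted as error neither difference between the sexes passed, and the highest limma adjusted p over the alternatives was 0.769 and 0.943.

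**Figure D2:**
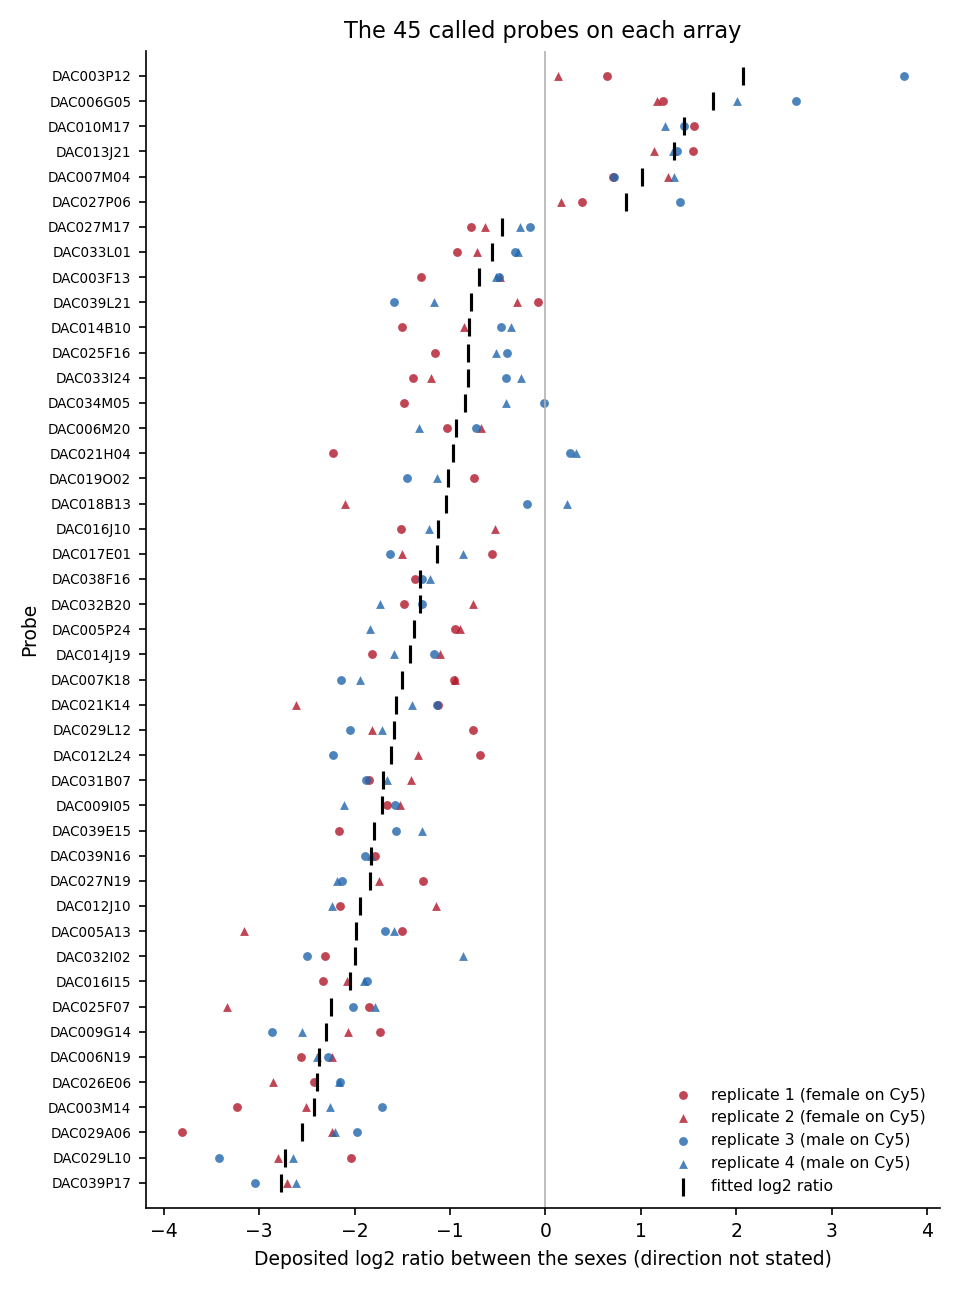
Deposited log2 ratio (horizontal axis) of the 45 called probes (vertical axis, ordered by fitted ratio) on each array: red marks are the arrays with female on Cy5, blue marks those with male on Cy5, and black bars the fitted ratios. In 43 probes all marks lie on the same side of 0; DAC021H04 and DAC018B13 have marks on both sides, and DAC003P12 has 1 mark at 3.76 far from its others.

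Some calls had a large gap between orientations, which the error of the fit does not hold. DAC021H04 was called at -0.97 ± 0.176 (SE, n = 3; limma adjusted p = 0.0304) with -2.22 on replicate 1 and 0.25 and 0.33 on replicates 3 and 4. DAC018B13 was called at -1.04 ± 0.198 (SE, n = 3; limma adjusted p = 0.0466) with -2.10 on replicate 2 and -0.19 and 0.22 on replicates 3 and 4. In both the ratio came from the lone array with female on Cy5. Among probes that were not called, DAC019H04 had -0.93 and -0.53 with female on Cy5 and 0.78 and 4.05 with male on Cy5. DAC034E24 had -4.15 and -0.46 against 0.26 and 0.65, and DAC032G21 had -1.16 on replicate 2 against 1.47 and 1.73 on replicates 3 and 4. The gap itself was called for 794 probes (10.7% of those tested), 319 higher and 475 lower with female on Cy5, and for 7 of the 45 probes that differed between the sexes. The median absolute gap was 0.6 for the 45 calls and 0.451 for all tested probes. With 4 arrays fitted alone no gap passed by limma, although 2470 probes had an unadjusted p under 0.05 and the lowest adjusted p was 0.0506.

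Many probes with large ratios on every array were not called. Of the probes with 4 values, 28 exceeded 2-fold without a call, 26 of them negative and 26 with 1 sign on all 4 arrays. DAC034C22 had -2.44, -1.96, -2.10 and -2.72, a 4.94-fold difference (limma adjusted p = 0.146, n = 4). DAC003K22 had -2.42, -2.33, -1.86 and -2.40 (limma adjusted p = 0.0598, n = 4), and DAC005M02 had -1.13, -3.41, -2.10 and -1.94 (limma adjusted p = 0.0843, n = 4). Their residual SDs over the 18 arrays were 1.53, 1.19 and 1.21, while their SDs over the 4 sex arrays were 0.342, 0.266 and 0.944. With the 4 sex arrays fitted alone all 3 passed (limma adjusted p = 0.00202, 0.00125 and 0.0467), as did 21 of the 28. That fit called 75 probes (1.01% of those tested), 66 negative and 9 positive, among them 32 of the 45.

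Large differences were also counted with no test. On all 4 arrays 43 probes were negative with a mean below -1 and 4 were positive with a mean above 1, of 5721 probes. The 43 had means between -2.73 and -1.0 with a median of -1.5, and the 4 had means between 1.02 and 1.76. The shared fit called 18 of the 43, and the fit of the 4 arrays alone called 38; the same values chose the list, so these counts only describe it. Centring the arrays gave 43 and 4, and scaling them gave 42 and 4. With 1 array left out the negative count was 43, 57, 62 and 49 without replicates 1 to 4. The positive count was 7, 17, 9 and 8. These counts asked for values of 1 sign on the remaining arrays only, so more probes than the 5721 could enter and the condition was looser. The 43 probes came from 25 of 41 plates, with at most 3 on any plate.

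These 43 probes were measured unevenly in the male-only experiments. In brains of the EcR-A RNAi experiment in adult males, between 11.6% and 25.6% of the 43 had a value on an array. Of all 5721 probes with 4 values on the sex arrays, between 71.2% and 82.7% had one. In whole males at 48 h the 43 had a value more often than the 5721 on average, at 88.4% to 100% per array and a mean of 93.6%, against 56.2% to 88.8% and a mean of 73.4%. In the CNS of fru P1 mutant and wild-type males at 48 h the mean was 92.2% for the 43 and 92.8% for the 5721. In male brains at 48 h of the EcR-A experiment the mean was 87.8% for the 43 and 63.7% for the 5721, and in the CNS at 0 h it was 60.5% and 74.6%. Values were also missing among probes with smaller or positive ratios. Of 71 probes with a mean ratio between 0.5 and 1, 34.2% on average had a value on a 0 h array and 49.6% on an adult array. Of 48 probes between -1 and -0.5, 51.6% and 42.2% did, and of the 5 probes above 1, 10% and 30.0% did. Why a value is missing from the deposited table is not given in the sources used here, so a missing value is not read as absence of the transcript. These shares describe probes chosen on the sex arrays and were not tested.

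**Figure D3:**
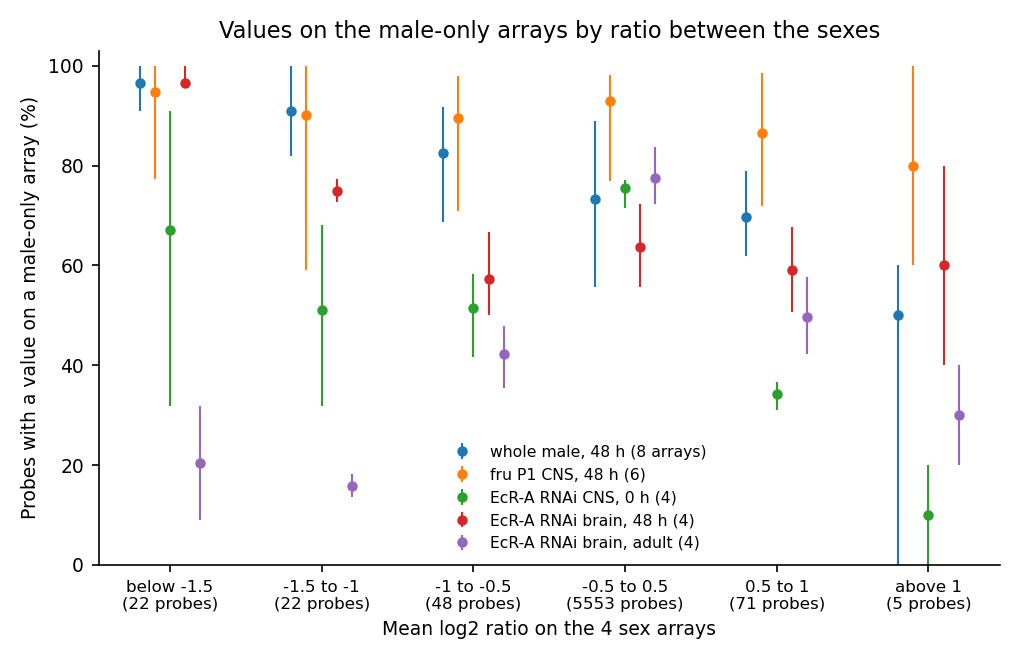
Share of probes with a deposited value on an array of the 5 male-only experiments (vertical axis, percent), by mean log2 ratio on the 4 sex arrays (horizontal axis, with the number of probes in each class); points are means over the arrays of an experiment and bars run from its lowest to its highest array. In the class below -1.5 the adult brain arrays average 20.5% and the whole-male arrays 96.6%, whereas between -0.5 and 0.5 they average 77.4% and 73.2%.

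The 43 probes also moved together on single arrays on which no female sample was used. On the sex arrays their median was -1.53, -1.72, -1.52 and -1.66. In the CNS of fru P1 mutants against wild type, replicates 1, 2 and 3 compared the same genotypes in the same dye orientation, yet the median of the 43 was -0.98 on replicate 1 and 0.87 and 0.83 on replicates 2 and 3. On replicate 1 all 38 probes with a value were below 0, and on replicates 2 and 3 38 of 43 were above 0 on each. The other fru CNS arrays had medians of 1.26, 0.19 and 0.62. In the RNAi CNS at 0 h the medians were -0.26, -0.57, -1.11 and 0.71, with 31 of 34 values above 0 on replicate 4 and 28 of 33 below 0 on replicate 3. The median of the 5721 probes lay between -0.16 and 0.07 on every array set beside these. In whole males the 43 had medians from 0.22 to 0.55 on the 4 arrays of fru-440/fru-P14 and from -0.65 to -0.39 on the 4 arrays of fru-w12/fru-ChaM5. The median residual SD of the 43 in the shared fit was 0.849, against 0.279 for the 5721, and on the sex arrays alone it was 0.412 against 0.208. Whether the tissue taken at dissection varied with these shifts was not tested, because the probes are unnamed. A ratio of this size in pooled tissue also does not tell more cells of a type from more RNA per cell.

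**Figure D4:**
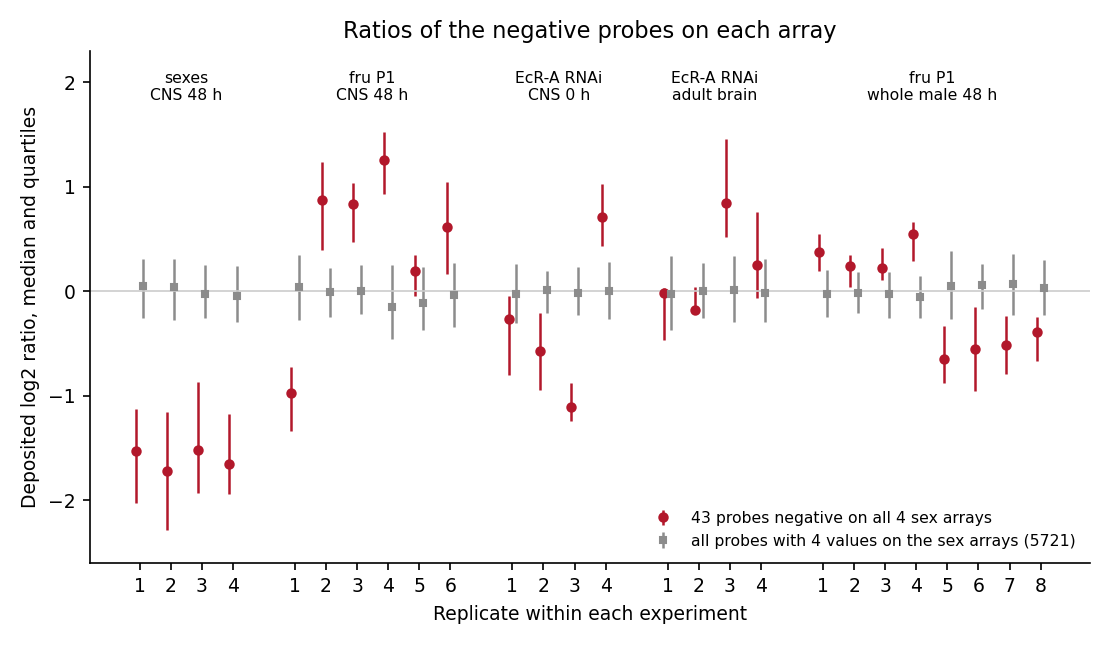
Median deposited log2 ratio (vertical axis, bars are quartiles) on each array (horizontal axis, replicates within experiments) of the 43 probes negative on all 4 sex arrays with a mean below -1 (red) and of all 5721 probes with 4 values there (grey). The red medians lie between -1.72 and -1.52 on the sex arrays and between -0.98 and 1.26 on the fru CNS arrays, while the grey medians stay near 0.

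Calls were spread over the array's plates: 24 of 41 plates held at least 1 of the 45, with at most 4 on any plate, and the median ratio per plate lay between -0.03 and 0.11. Probes just inside and just outside the limit on values differed in spread. The 1693 probes with 3 values had an SD of 0.336 over their ratios, with 37 below -1 and 4 above 1. The 467 probes with 2 values, 1 in each orientation, had an SD of 0.572, with 41 below -1 and 7 above 1. The 5721 probes with 4 values had an SD of 0.245, with 44 below -1 and 5 above 1, so all 3 classes held more large negative than large positive ratios.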

How the data were processed

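The deposited table held 1 log2 ratio per probe and array, made by the authors with limma per the submitters' processing notes; which version, background correction and normalization they used is not given in the sources used here. Per the labels' protocols, RNA from the CNS was amplified, and cRNA was labelled. On 3 RNAi arrays at 48 h the authors' deposited values had another scale and were treated as a score; only the presence of a value was used there. Two-sided tests were run with lmFit and eBayes of limma 3.58.1 under R 4.3.3, with p-values adjusted by Benjamini-Hochberg over the 7414 tested probes and a threshold of 0.05. The fit covered all probes on 18 arrays of 4 CNS experiments, with 1 coefficient for effect and 1 for dye orientation in each experiment. It was also run on simulated ratios that gave each probe 1 spread over all 18 arrays. That simulation does not show how the fit behaves where the spread differs between experiments. Arrays alone in their dye orientation are fitted exactly. Named probes were up to 12 calls of each sign with 4 values by p, up to 6 of each sign with 3 values by size, the 3 largest uncalled probes, and the 3 called and 3 uncalled probes with the largest gap between orientations; a probe mentioned in another place was chosen after its values were seen. Gene and marker lists were not used, since no table names the probes. Alternatives changed the arrays fitted, the dye coefficient, the values required, scaling, weights and the ratio's direction, or left out 1 replicate. Members, lists and tests were chosen with earlier results of these data known. The list of 43 probes was chosen after seeing the data.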

Additional observations from a re-analysis of the deposited data

Results flagged for a closer look

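In 25 checks for a value far from the rest of its group, 2 values stood out. Most checks took a named probe over the same sex arrays, and the others took the medians of the 43 negative probes within an experiment. Chance alone flags about 1 in 20 independent checks, but these share arrays and the probes were named for their values. Probe DAC029A06 had -3.81 on replicate 1, where its other arrays lay between -2.23 and -1.98. Probe DAC003K22 had -1.86 on replicate 3, where its other arrays lay between -2.42 and -2.33.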

How the results depend on the processing

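The 45 calls (6 positive, 39 negative) stayed within 1.5 times that count with 1 dye coefficient shared by 4 experiments (50), a value on at least 2 arrays (61), centred arrays (32), centred and scaled arrays (65) and robust eBayes (36). The count moved further with the 4 sex arrays fitted alone (75, of which 66 negative, while the calls of a gap between orientations went to 0 from limma, with 2470 at an unadjusted p under 0.05), with no dye coefficient (24: 1 positive, 23 negative), with a value required on all 4 arrays (14: 1 and 13) and with array weights (21: 3 and 18). With 1 replicate left out the calls ranged between 12 and 36, the positive ones between 1 and 22, the negative ones between 7 and 33 and the gap calls between 46 and 119, against 794; fewer probes were tested in these fits and the lone array of an orientation entered no error. The counts of probes with 1 sign on every array and a mean beyond 1 ranged between 43 and 62 (negative) and 7 and 17 (positive) with 1 replicate left out. There only the remaining arrays had to hold values of 1 sign, a looser condition open to more probes. Reading the ratios as Cy5 over Cy3 makes the gap the effect: it gave 794 calls (319 positive, 475 negative) and lists of 11 and 0, and the sign of 17 named probes turned, 2 of them without a call either way (DAC034C22 at 0.10 and DAC032G21 at -1.38). DAC006G05 stood at -0.56, DAC013J21 at -0.0063, DAC007M04 at -0.017, DAC003P12 at -1.68, DAC027P06 at -0.57, DAC019H04 at -1.57, DAC029L10 at 0.31, DAC007K18 at 0.55, DAC029L12 at 0.29, DAC009G14 at 0.40, DAC031B07 at 0.071, DAC039P17 at 0.061, DAC012J10 at 0.29, DAC039N16 at 0.037 and DAC012L24 at 0.61. Under the other alternatives no named probe changed sign. No paired analysis was possible because each array already holds both sexes, and replicate numbers shared between experiments belong to different samples. For the other moves the cause was not tested. How far each spot stood above background is unknown.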

Other observations

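Probes outside the limit on values leaned the same way as those inside it. Of the 467 probes with 1 value in each dye orientation, 28 were beyond 1 on both arrays, and 24 of these had the same sign on both: 23 were negative and 1 was positive.

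Of the 32 control spots, 17 had a value on at least 1 sex array and 9 met the limit on values. Their mean ratios lay between -0.24 and 1.34. The control spot DACControlB05, singled out after its values were seen, had 0.24, 1.78, 1.97 and 1.36 on replicates 1 to 4; what it measures is not given in the sources used here.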
